A study of Mus musculus with 6 samples.

Results

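The axon guidance ligands and receptors were followed here in mouse cortical neurons with lowered Cugbp1. They were chosen by name from the probe annotation, as the genes of the semaphorin, plexin, EphA, EphB, ephrin-A, ephrin-B, Slit, Robo, netrin and Unc5 families together with Nrp1, Nrp2 and Dcc. This gave 70 genes of the 22076 that had a probe set of their own, 36 ligands and 34 receptors. Slitrk genes, Unc50 and Unc5cl share letters with these names but belong to other families and were left out. Of the 70 genes, 69 were measured. Nrp2 was not, because 28 of its probe sets are annotated to Nrp2 and Pard3b together and its single probe set of its own had a low signal.

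Guidance cues steer growing axons by attraction and repulsion. Semaphorins act through plexins, with neuropilins as co-receptors for most secreted class 3 members; ephrins are bound to the cell surface and act on Eph receptor tyrosine kinases; Slits repel through Robo receptors; and netrin-1 attracts through Dcc and repels through Unc5 receptors. In the cortex these families guide callosal, thalamic and corticospinal axons, and later in life they shape dendrites, spines and synapses. Many of them also act in blood vessels.

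The Cugbp1 shRNA group was 3 samples given lentivirus that expresses a short hairpin RNA (shRNA) against mouse Cugbp1, and the control shRNA group was 3 samples given lentivirus with a control hairpin. Both held primary cortical neurons of C57BL/6 embryos taken at embryonic day 15, freed of meninges and given AraC, which removes dividing cells. Both were infected on day 5 for 4 hours and harvested on day 11, after 6 more days of culture, and each of the 6 arrays used 100 ng of total RNA. The treatment text of replicates 2 and 3 in both groups names a hairpin against Tdp-43 in place of Cugbp1, the series' design text names motor neurons, and nothing in the labels says whether replicates came from separate dissections, so the p-values measure the spread between these arrays, which may be technical. Effects of the hairpin other than those on its target cannot be told apart from the effects of lowering Cugbp1.

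The target came down. Cugbp1 is now named Celf1, and its product binds RNA and acts in splicing, decay and translation. Its gene value was 9.59, 9.40 and 9.33 in the Cugbp1 shRNA arrays and 10.85, 10.79 and 10.75 in the control arrays, on the log2 scale, which left 0.391 of the control level (limma, adjusted p = 0.0124). A gene value is the summary, over all probe sets of the gene with signal above the median of the array, of their log2 intensity. Array medians lay between 5.74 and 5.78. Levels of different genes rest on different probes and were not compared.

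In the fit with the 2 groups alone few guidance genes were called, at a share near that of all genes, and in both directions. Epha4, a receptor for ephrins of both classes, rose 1.58-fold, and Sema4f, a transmembrane semaphorin, rose 1.38-fold. Plxnd1, the receptor of Sema3e, fell to 0.613 of its control level. These 3 were called among the 69 measured genes, a call being an adjusted p under 0.05 in limma over all 16532 genes measured, 2 of them higher and 1 lower. That is 4.35% of the guidance genes, beside 3.94% of all genes, with 1.09% of all genes called higher and 2.85% lower. The median log2 difference, Cugbp1 shRNA minus control, was -0.037 over the guidance genes and -0.015 over all genes, and 40 of the 69 had a lower mean. Without control replicate 2 the medians were 0.0013 over the guidance genes and 0.0019 over all genes. Wherever arrays were left out, gene values were summarised anew from the arrays left. Such differences hold that step as well as the loss of the arrays, and the 2 were not told apart.

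Same-numbered arrays of the groups deviated together, so the fit was also run with the replicate number as a block. With it 14 guidance genes were called, 6 higher and 8 lower, which is 20.3% of them beside 23.2% of all genes (9.34% higher and 13.9% lower). The 6 higher were Epha4, Sema4f, Ephb4, Unc5a, Efna3 and Unc5c, and the 8 lower were Plxnd1, Sema3d, Nrp1, Plxna3, Epha3, Plxnb1, Plxna4 and Robo2. Both shares lie near those of all genes, so the number of calls does not set the guidance genes apart. Of the 14 calls 11 were among 33 receptors, or 33.3%, and 3 among 36 ligands, or 8.33%; the difference between these shares was not tested. Without replicate 2 of both groups this fit called 0 guidance genes and 0 of all genes (4019 of all genes at an unadjusted p under 0.05 in limma), without replicate 1 it called 8 and without replicate 3 it called 4. The 3 left-out pairs were chosen after seeing the data. In the fit without the block, the 3 calls became 1, Epha4, without control replicate 1 and 0 without any other single array, while over all genes there were 274 calls where control replicate 1 was left out, 1 call where Cugbp1 shRNA replicate 1 was, and 0 in the other 4 cases (limma, 2015 to 2764 genes with an unadjusted p under 0.05).

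**Figure D1:**
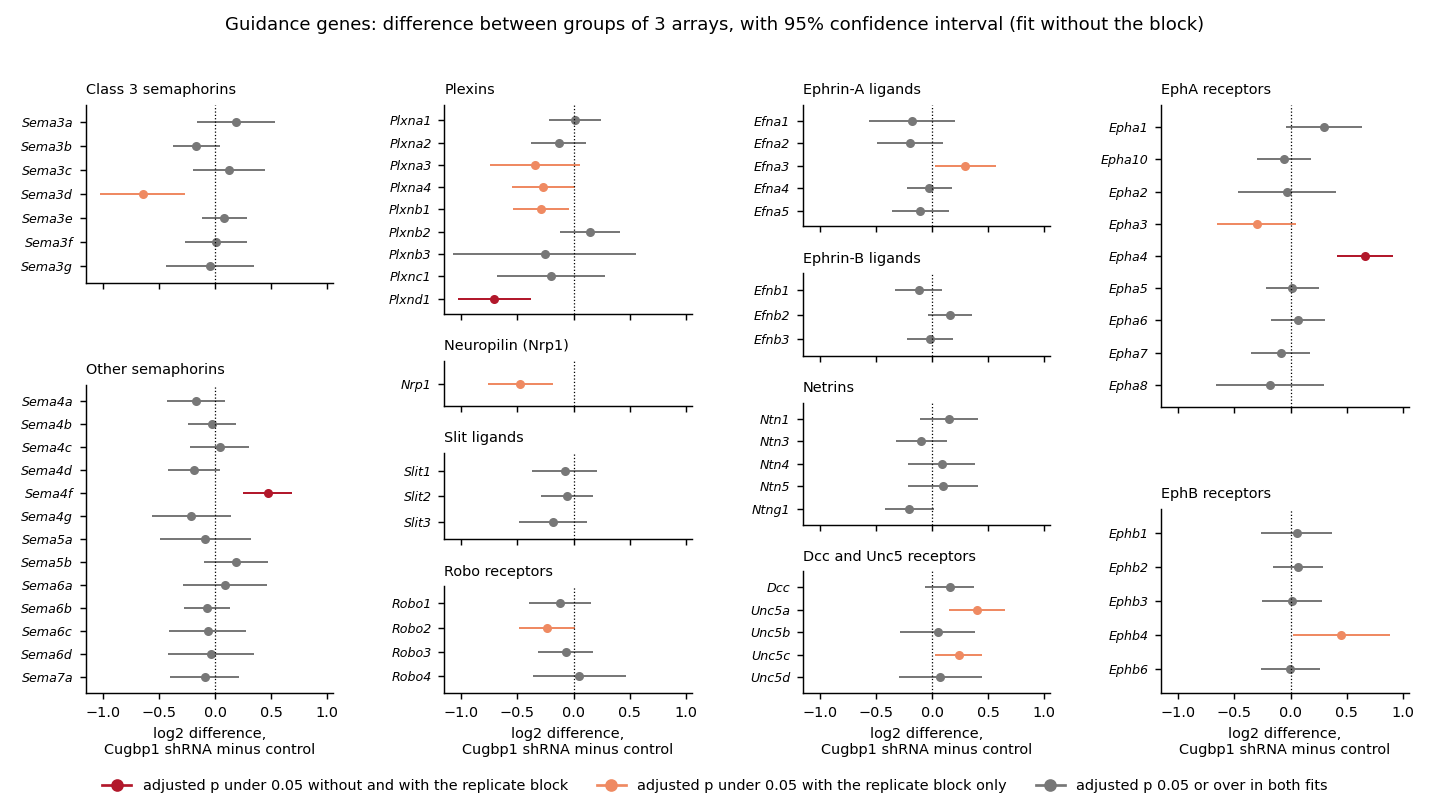
Log2 difference between the group means of the 69 measured guidance genes by family (horizontal axis), with the 95% confidence interval of the fit without the replicate block. Epha4 and Sema4f lie at 0.66 and 0.47 and Plxnd1 at -0.71, while 7 of the 9 plexins lie below 0 and the 5 Dcc and Unc5 receptors above it.

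Of the 7 class 3 semaphorins, the secreted ligands, 0 were called without the block, where 1 had an unadjusted p under 0.05 in limma, and 1 was called with it. Sema3d, a guidance cue of axons and of vascular and neural crest cells, had values of 7.19, 7.37 and 7.29 in the Cugbp1 shRNA arrays and 7.86, 8.26 and 7.66 in the control arrays. Every Cugbp1 shRNA value was under every control value, and the widest gap was in replicate 2. The log2 difference was -0.65 (standard error 0.16; limma, adjusted p = 0.0692, and 0.00980 with the block). It was -0.40 without control replicate 2, with gene values summarised anew from the arrays left. The other 6 lay between -0.17 for Sema3b and 0.19 for Sema3a, the classic repellent of cortical axons. The 95% confidence interval of Sema3a, -0.15 to 0.53, does not exclude a moderate difference. With the block it was 0.043 to 0.33, without a call (limma, adjusted p = 0.0703). Sema3e, the ligand of Plxnd1, was at 0.080 (interval -0.11 to 0.27).

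Sema4f was the one call among the 13 membrane-bound and other semaphorins in either fit. Its values were 9.96, 10.08 and 10.01 in the Cugbp1 shRNA arrays, against 9.62, 9.58 and 9.45 in the control arrays. The groups did not overlap, and the differences within replicates 1, 2 and 3 were 0.34, 0.51 and 0.55. The log2 difference was 0.47 (standard error 0.09; limma, adjusted p = 0.0378, and 0.00696 with the block). All 19 of its probe sets had a higher mean. Of the other 12, 9 had a lower mean, from -0.21 for Sema4g to -0.025 for Sema4b, among them Sema4d at -0.19 (adjusted p = 0.366), a ligand of Plxnb1, and Sema7a, the anchored semaphorin that promotes axon growth, at -0.093 (adjusted p = 0.805). Sema5b had the highest value among the rest, 0.19 (interval -0.09 to 0.46). With the block its interval was 0.026 to 0.35, without a call (limma, adjusted p = 0.0935).

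The plexins and Nrp1, the receptor side of semaphorin signalling, had mostly lower values. Of the 9 plexins 7 had a lower mean, with a median of -0.26 beside -0.015 over all genes, and these 7 were lower in each of the 3 replicate pairs. In all, 8 of the 9 plexins, or 88.9%, had 1 sign in the 3 pairs, beside 57.5% of all genes. One plexin, Plxnd1, fell without the block, beside 2.85% of all genes, and 4 were called lower with it, beside 13.9%. The family median was -0.20, -0.27 and -0.16 within replicates 1, 2 and 3. The pan-neuronal markers had a median of -0.10, with 9 of 11 measured markers lower in every pair, and their part in the plexin values was not tested.

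Plxnd1 had values of 10.45, 10.61 and 10.33 in the Cugbp1 shRNA arrays and 11.00, 11.42 and 11.09 in the control arrays. Every Cugbp1 shRNA array lay below every control array. The log2 difference was -0.71 (standard error 0.13; limma, adjusted p = 0.0374, and 0.00328 with the block), and it was -0.55, -0.80 and -0.76 within the 3 replicates. Plxnd1 is a receptor of blood vessels as well as of neurons. Of the 10 endothelial and mural markers 9 were measured, with a median difference of -0.012, 1 called lower and none called higher, and their mean level ran from 6.91 to 7.16 in the Cugbp1 shRNA arrays and from 6.91 to 7.31 in the control arrays. Pecam1, Cdh5, Kdr and Flt1, which define endothelium, differed by -0.13, 0.057, -0.15 and -0.012, none of them called in either fit, and Tek differed by 0.21 (adjusted p = 0.529, and 0.0869 with the block). The called one was Pdgfrb, of mural cells, at -0.80 (adjusted p = 0.0414), and its part in the Plxnd1 result was not tested. The other mural markers differed by 0.23 for Cspg4, whose groups did not overlap, 0.056 for Rgs5 and -0.19 for Kcnj8, none called in either fit. Cspg4 is also a marker of the oligodendrocyte lineage and was counted in both lists. In such bulk RNA fewer cells of a type and less RNA per cell cannot be told apart.

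The class A plexins signal for class 3 and class 6 semaphorins. Plxna3 had values of 10.08, 9.77 and 9.53 in the Cugbp1 shRNA arrays and 10.29, 10.24 and 9.90 in the control arrays, which overlap between groups but not within replicates. Its log2 difference was -0.35 (limma, adjusted p = 0.334, and 0.0191 with the block). Plxna4, the main plexin of Sema3a repulsion, had 10.90, 11.11 and 10.98 against 11.20, 11.45 and 11.13 in the control arrays. The Cugbp1 shRNA arrays of Plxna4 all lay below the control arrays, with differences of -0.30, -0.35 and -0.16 within replicates, a log2 difference of -0.27 (adjusted p = 0.270, and 0.0316 with the block), and of -0.17 without control replicate 2. Plxna2 was lower by 0.13 in each replicate pair (adjusted p = 0.586, and 0.136 with the block), and Plxna1 was at 0.016 (interval -0.21 to 0.24).

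Plxnb1, a receptor of Sema4d that signals through RhoA, had values of 9.59, 9.57 and 9.42 in the Cugbp1 shRNA arrays, against 9.78, 9.95 and 9.70 in the control arrays. The groups did not overlap, and the log2 difference was -0.29 (limma, adjusted p = 0.186, and 0.0252 with the block). With gene values summarised anew, it was -0.14 without Cugbp1 shRNA replicate 3 or without control replicate 2. Plxnb2, the widely expressed member of the same class, was at 0.15 (adjusted p = 0.576) and had a higher mean in 45 of its 49 probe sets. Plxnb3 and Plxnc1 were at -0.26 and -0.20, with intervals of -1.06 to 0.55 and -0.67 to 0.27. With the block the intervals were -0.44 to -0.073 and -0.35 to -0.054, without a call (limma, adjusted p = 0.0566 and 0.0620).

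Nrp1, the co-receptor of Sema3a that also binds vascular endothelial growth factor, had values of 9.89, 10.10 and 9.94 in the Cugbp1 shRNA arrays and 10.48, 10.61 and 10.25 in the control arrays. Every Cugbp1 shRNA array was below every control array. The log2 difference was -0.47 (standard error 0.12; limma, adjusted p = 0.0765, and 0.00883 with the block), and 25 of its 29 probe sets had a lower mean. It was at -0.34 with no filter on low probe sets, where all 38 of its probe sets entered.

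**Figure D2:**
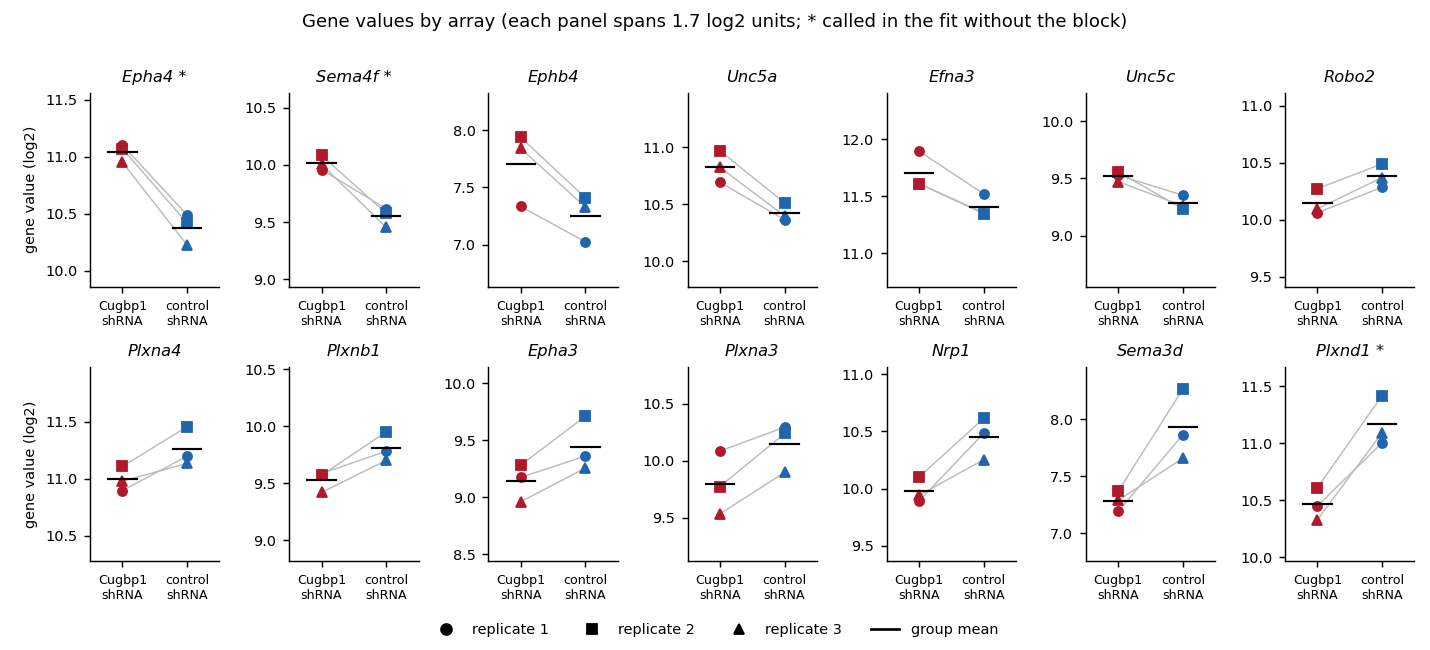
Gene value in each array (log2, vertical axis) of the 14 guidance genes called with the replicate block, ordered from the highest to the lowest difference, with Cugbp1 shRNA arrays on the left and control arrays on the right of each panel. Lines join arrays of the same replicate number and bars are group means; all 14 genes moved the same way in the 3 pairs, while Ephb4, Plxna3 and Epha3 overlap between groups.

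Among the ephrins, the ligands of Eph receptors, 0 of 8 were called without the block, with 1 at an unadjusted p under 0.05 in limma, and 1 was called with it. Efna3 had values of 11.90, 11.61 and 11.61 in the Cugbp1 shRNA arrays and 11.52, 11.35 and 11.36 in the control arrays, which did not overlap. Its log2 difference was 0.30 (limma, adjusted p = 0.210, and 0.0187 with the block), and all 6 of its probe sets had a higher mean. The other 4 ephrin-A ligands lay between -0.20 for Efna2 and -0.026 for Efna4, with Efna5, which patterns topographic maps, at -0.10 (interval -0.34 to 0.14).

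Of the ephrin-B ligands, which span the membrane and can signal back into their own cell, Efnb2 had the smallest p. It had 10.55, 10.58 and 10.58 in the Cugbp1 shRNA arrays and 10.45, 10.40 and 10.38 in the control arrays. The groups were apart by a small step, a log2 difference of 0.16 (limma, adjusted p = 0.343, and 0.0941 with the block). With gene values summarised anew from the arrays left, it was 0.0999 without Cugbp1 shRNA replicate 2 and 0.0986 without Cugbp1 shRNA replicate 3. It was 0.0935 without control replicate 1. These values cannot be read from the array values above. Efnb1 was at -0.12 and Efnb3 at -0.020, neither called in either fit.

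Epha4 was the clearest change among the 14 Eph receptors. It is a kinase of growth cones, spines and astrocyte contacts that responds to ephrin-A and some ephrin-B ligands and mediates repulsion of corticospinal axons. Its values were 11.10, 11.07 and 10.95 in the Cugbp1 shRNA arrays and 10.49, 10.42 and 10.23 in the control arrays. Every Cugbp1 shRNA array was above every control array, by 0.61, 0.65 and 0.72 within replicates 1, 2 and 3. The log2 difference was 0.66 (standard error 0.10; limma, adjusted p = 0.0238, and 0.00271 with the block). Leaving out single arrays gave 0.60 to 0.70 with adjusted p values of 0.0459 without control replicate 1 and of 0.0667 to 0.155 otherwise.

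Epha3, a close relative of Epha4 that binds ephrin-A ligands, had values of 9.17, 9.28 and 8.96 in the Cugbp1 shRNA arrays, against 9.36, 9.71 and 9.26 in the control arrays. The groups overlapped, and the pairs differed by -0.19, -0.43 and -0.29, a log2 difference of -0.30 (limma, adjusted p = 0.328, and 0.0267 with the block), and of -0.17 without control replicate 2. The other class A receptors of cortical neurons stayed closer to 0, with Epha5 at 0.017, Epha6 at 0.065 and Epha7 at -0.089, and their intervals together span -0.34 to 0.30. Epha1, Epha2, Epha8 and Epha10 lay between -0.18 and 0.30, and none was called in either fit. Epha1 rests on 6 of its 24 probe sets, since the rest had low signal.

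Ephb4 is best known from veins. Its values were 7.33, 7.94 and 7.84 in the Cugbp1 shRNA arrays and 7.02, 7.41 and 7.33 in the control arrays. Replicate 1 was lowest in both groups, so the groups overlapped, but each pair differed upward, by 0.31, 0.53 and 0.51. The log2 difference was 0.45 (limma, adjusted p = 0.233, and 0.00838 with the block), with a higher mean in 22 of 22 probe sets. Ephb1, Ephb2 and Ephb3, the receptors of spine formation, were at 0.054, 0.066 and 0.010, none called in either fit, and Ephb6, whose kinase is inactive, was at -0.0018.

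Slits and Robos had mostly lower values, by little. The 3 Slit ligands lay between -0.18 for Slit3 and -0.060 for Slit2, none called in either fit. Slit3, with the smallest p, had values of 8.96, 9.29 and 9.22 in the Cugbp1 shRNA arrays and 9.24, 9.27 and 9.51 in the control arrays, which overlap, and its replicate pairs differed by -0.28, 0.02 and -0.29 (limma, adjusted p = 0.521, and 0.151 with the block). Its log2 difference of -0.18 was -0.083 without Cugbp1 shRNA replicate 1 or without control replicate 3, and -0.29 with the block and without replicate 2 of both groups.

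Robo2, a Slit receptor of cortical axons, had values of 10.06, 10.27 and 10.10 in the Cugbp1 shRNA arrays, against 10.28, 10.49 and 10.37 in the control arrays. The groups met closely without overlapping, and the pairs differed by -0.22, -0.22 and -0.27, a log2 difference of -0.24 (limma, adjusted p = 0.265, and 0.0303 with the block). Robo1 was at -0.12 (adjusted p = 0.679), Robo3, the receptor of commissural crossing, at -0.071, and Robo4, of endothelium, at 0.052, none called in either fit.

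On the netrin side the Dcc and Unc5 receptors had higher values. All 5 Dcc and Unc5 receptors had a higher mean, with a median of 0.16 beside -0.015 over all genes. The family median was 0.18, 0.22 and 0.098 within replicates 1, 2 and 3. Without the block 0 were called, beside 1.09% of all genes called higher, and 2 had an unadjusted p under 0.05 in limma. With the block 2 were called higher, or 40%, beside 9.34% of all genes. Unc5a had values of 10.69, 10.97 and 10.82 in the Cugbp1 shRNA arrays and 10.37, 10.51 and 10.40 in the control arrays. The groups did not overlap, and the log2 difference was 0.40 (standard error 0.10; limma, adjusted p = 0.0806, and 0.00779 with the block).

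Unc5c, which turns the response to netrin-1 toward repulsion, had values of 9.53, 9.56 and 9.47 in the Cugbp1 shRNA arrays and 9.35, 9.23 and 9.26 in the control arrays. All Cugbp1 shRNA arrays lay above all control arrays, by a log2 difference of 0.24 (limma, adjusted p = 0.183, and 0.0389 with the block). With gene values summarised anew, it was 0.14 without Cugbp1 shRNA replicate 2 and 0.16 without control replicate 3. Dcc, the attractive receptor, had 9.64, 9.75 and 9.56 against 9.47, 9.54 and 9.47 in the control arrays. Dcc too did not overlap between groups, but at a log2 difference of 0.16 it was not called (interval -0.05 to 0.37, adjusted p = 0.415, and 0.104 with the block). Unc5b and Unc5d were at 0.051 and 0.075. Where 1 array was left out they ran from -0.052 to 0.15 and from -0.041 to 0.17. Receptors from the further list given below went both ways. Neo1 was at -0.23 and Dscam at -0.21, each lower in every pair, while Cdon was at 0.50. None was called without the block, and all were called with it (limma, adjusted p = 0.0319, 0.0411 and 0.00823).

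The netrins themselves, 5 genes with Ntng1 included, had 0 calls in either fit (limma, 0 at an unadjusted p under 0.05 without the block, and with it Ntng1 at an unadjusted p of 0.0228). Ntn1, the ligand of Dcc and Unc5, was at 0.15 (interval -0.10 to 0.40). Ntng1, a membrane-anchored netrin-G of synaptic adhesion, had 7.95, 8.11 and 8.11 in the Cugbp1 shRNA arrays and 8.28, 8.26 and 8.23 in the control arrays. The groups did not overlap for Ntng1, at a log2 difference of -0.20 (limma, adjusted p = 0.278, and 0.0783 with the block). With gene values summarised anew, that difference was -0.056 without Cugbp1 shRNA replicate 1 and -0.13 without Cugbp1 shRNA replicate 2. It was -0.10 without control replicate 1, -0.12 without control replicate 2 and -0.13 with replicates 2 and 3 alone. The shares of the new summary and of the left-out arrays in these values were not told apart. Across all guidance genes, 18 of 69, or 26.1%, had groups that did not overlap, beside 25.2% of all genes.

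In several of the called genes all probe sets lay on 1 side. In Epha4 22 of 22 probe sets had a higher mean, in Sema4f 19 of 19 and in Ephb4 22 of 22, while in Plxnd1 44 of 44, in Plxna3 41 of 41 and in Sema3d 19 of 19 had a lower one. The other called genes except Efna3 had probe sets on both sides, among them Nrp1 with 4 higher and 25 lower, Robo2 with 4 and 36, Epha3 with 2 and 21, and Unc5a with 23 higher and 1 lower. Plxna2, not called in either fit, had a lower mean in 45 of 45. Among guidance genes with at least 10 probe sets, 8 of 63, or 12.7%, had all of them on 1 side, beside 12.4% of all such genes. Probe sets of a gene share their RNA and are not independent measurements.

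**Figure D3:**
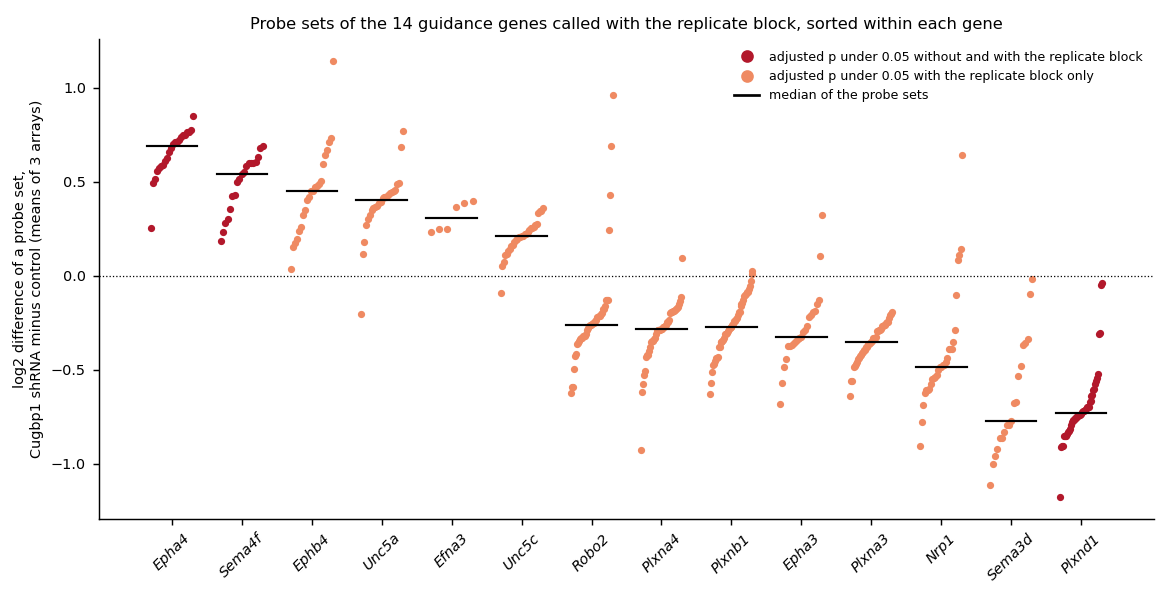
Log2 difference of the group means of each probe set (vertical axis) in the 14 guidance genes called with the replicate block, sorted within a gene, with the gene's median as a bar. The points of Epha4, Sema4f, Ephb4 and Efna3 all lie above 0 and those of Plxna3, Sema3d and Plxnd1 all below it, while Robo2 and Nrp1 have 4 probe sets each on the other side.

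Exon usage was compared because CELF1 acts in splicing. Of 1783 probe sets in the guidance genes, 2, or 0.112%, had a relative level called by diffSplice, which sets a probe set against the rest of its gene, beside 0.0821% of all 244785 probe sets. Both were higher in the Cugbp1 shRNA arrays, as were 0.0441% of all probe sets, with 0.038% lower. With the replicate block 40 were called, or 2.24% beside 2.37%. The 2 were in Robo2 and Efnb1. Probe set 4886758 of Robo2 lay at -1.42, -2.05 and -1.81 relative to its gene value in the Cugbp1 shRNA arrays and at -2.07, -4.28 and -2.53 in the control arrays, so the groups barely parted and control replicate 2 stood far below the rest. Its relative difference was 1.202 (diffSplice, adjusted p = 0.00768), and 0.55 without control replicate 2. Probe set 4566636 of Efnb1 lay at -1.48, -0.96 and -1.43 against -2.51, -2.004 and -1.85 in the control arrays, without overlap, a relative difference of 0.85 (diffSplice, adjusted p = 0.0479). A splicing index, which gives each probe set its own variance, called 0 of these and 0 of all 244785 probe sets, with or without the block, where 49 and 157 guidance probe sets had an unadjusted p under 0.05 (limma, without and with the block). The position of these probe sets within their genes was not used here.

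The 250 bases before to 50 after the annotated start of the 3 genes called without the block are given here as their promoters, from RefSeq (GRCm38.p6), because these genes carry the clearest changes. Capitals mark matches, on either strand, to the GC box GGGCGG, the TATA box TATAAA, the CCAAT box CCAAT and the E-box CACGTG. Epha4 lies at chr1:77515039-77515338, Sema4f at chr6:82939720-82940019 and Plxnd1 at chr6:115994956-115995255, all on the minus strand.
Epha4: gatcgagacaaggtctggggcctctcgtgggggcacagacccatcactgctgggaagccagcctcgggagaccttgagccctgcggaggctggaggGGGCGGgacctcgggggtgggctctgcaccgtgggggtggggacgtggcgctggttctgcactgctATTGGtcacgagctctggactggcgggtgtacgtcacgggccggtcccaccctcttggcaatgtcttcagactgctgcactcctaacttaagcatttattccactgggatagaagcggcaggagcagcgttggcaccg
Sema4f: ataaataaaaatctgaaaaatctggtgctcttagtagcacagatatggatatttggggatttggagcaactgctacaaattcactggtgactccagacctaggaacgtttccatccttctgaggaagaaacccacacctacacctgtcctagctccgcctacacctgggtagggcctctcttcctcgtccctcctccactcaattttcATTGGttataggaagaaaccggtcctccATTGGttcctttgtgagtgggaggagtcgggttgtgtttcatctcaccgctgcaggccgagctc
Plxnd1: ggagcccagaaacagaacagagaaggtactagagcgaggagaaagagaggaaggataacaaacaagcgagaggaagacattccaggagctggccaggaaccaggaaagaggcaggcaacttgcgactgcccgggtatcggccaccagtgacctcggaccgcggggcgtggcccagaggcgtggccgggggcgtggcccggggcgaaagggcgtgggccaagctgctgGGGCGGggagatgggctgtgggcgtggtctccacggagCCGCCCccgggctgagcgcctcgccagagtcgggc
Epha4 holds 1 GC box and 1 CCAAT box, Sema4f holds 2 CCAAT boxes and Plxnd1 holds 2 GC boxes, and the TATA box and E-box letters are in none of these windows. A promoter was at hand for 60 of the 70 guidance genes. The background was the 12991 promoters at hand, 1 per gene, for measured or guidance genes. The GC box letters were in 73.3% of the guidance promoters and in 58.4% of the background. The CCAAT letters were in 26.7% and 37.7%, the TATA letters in 3.33% and 8.48% and the E-box letters in 6.67% and 9.51%.

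Other genes of the pathway, from a list of further cues and receptors, also moved in both directions. Of 33 such genes 32 were measured and 3, or 9.38%, fell without the block, beside 3.94% of all genes called, with 0 called higher, a median of -0.089 and 5 higher and 10 lower with the block, or 46.9%, beside 23.2% of all genes. Rgma, a repulsive ligand of neogenin, had values of 10.46, 10.44 and 10.25 in the Cugbp1 shRNA arrays and 11.33, 11.33 and 11.00 in the control arrays. Its groups were well apart, and it fell by 0.84 on the log2 scale (limma, adjusted p = 0.0199). Cntn2, an adhesion protein of early axons, fell by 0.61 (adjusted p = 0.0352), and Gpc1, a glypican that binds Slit, fell by 0.61 (adjusted p = 0.0377). Cdon, a receptor of the hedgehog and netrin pathways, was at 0.50 (adjusted p = 0.0607). Rtn4r, the Nogo receptor, was at -0.35 (adjusted p = 0.123), and Ryk, a Wnt receptor, at -0.27 (adjusted p = 0.197). Cdon, Rtn4r and Ryk were called with the block (adjusted p = 0.00823, 0.0107 and 0.0294). Rtn4r was at -0.18 without control replicate 1, with gene values summarised anew.

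Of 41 proteins that act below guidance receptors inside the cell, 39 were measured, with 3 that rose and 2 that fell without the block, or 12.8% beside 3.94% of all genes, and with 6 higher and 7 lower with the block, or 33.3% beside 23.2% of all genes. Their median was -0.022. Enah, the actin regulator Mena, had values of 11.39, 11.53 and 11.46 in the Cugbp1 shRNA arrays and 10.76, 10.71 and 10.89 in the control arrays, and rose by 0.68 on the log2 scale (limma, adjusted p = 0.0182). Srgap1, a GTPase-activating protein of Slit and Robo signalling, rose by 0.50 (adjusted p = 0.0296), and Rnd1, a GTPase that binds plexins, by 0.55 (adjusted p = 0.0394). Farp2, an exchange factor of plexin-A signalling, fell by 0.69 (adjusted p = 0.0281), and Vav2, an exchange factor downstream of Eph receptors, by 0.63 (adjusted p = 0.0382). Ngef, the Eph-associated exchange factor ephexin, was at 0.45 (adjusted p = 0.0945, and 0.00668 with the block). These calls too were lost in every fit that left out a single array, though replicates 2 and 3 alone gave calls in both lists. Neither list was tested against other genes. Both lists were chosen with earlier results of these data known, so their shares cannot tell whether the pathway changed more than other genes.

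**Figure D4:**
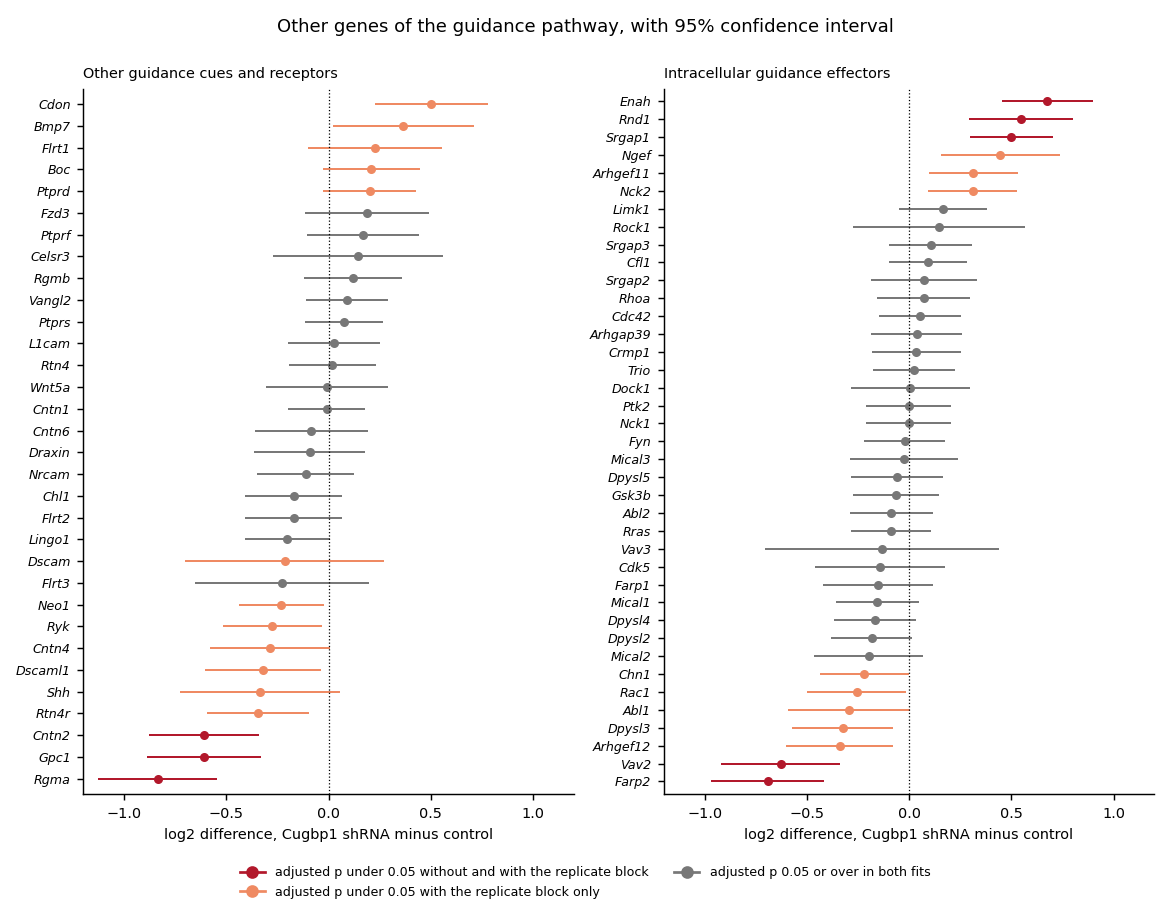
Log2 difference with its 95% confidence interval (horizontal axis, fit without the block) of 32 further guidance cues and receptors and 39 intracellular effectors, sorted by size. Rgma lies lowest at -0.84 on the left, and Enah highest at 0.68 and Farp2 lowest at -0.69 on the right.

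Markers of the cell types such a culture can hold gave few calls without the block, where 3.94% of all genes were called. With the block, 9.34% of all genes were called higher and 13.9% lower. Pan-neuronal markers averaged 11.77 to 11.84 in the Cugbp1 shRNA arrays and 11.86 to 12.001 in the control arrays, with 0 of 11 called without the block (1 at an unadjusted p under 0.05 in limma). With the block Dcx, of young neurons, was called at -0.45 (adjusted p = 0.00503), and its groups did not overlap. Astrocyte, oligodendrocyte lineage and microglia markers had medians of -0.082, 0.11 and -0.067. Without the block 0 of 10, 0 of 9 and 0 of 10 were called (1, 0 and 0 at an unadjusted p under 0.05), and 2, 0 and 1 were called lower with it. The astrocyte calls were Ntsr2 at -0.87, whose groups did not overlap, and Aldh1l1 at -0.21 (limma with the block, adjusted p = 0.00291 and 0.0411). Of the oligodendrocyte lineage markers, Pdgfra, Cspg4, Olig1 and Sox10 were higher in all 3 pairs. Mbp, Mag and Cnp were lower in all 3, and Olig2 and Mog were mixed. Of the fibroblast and meninges markers, with a median of -0.045, Thbs1 fell by 0.72 (adjusted p = 0.0443). All 9 measured proliferation markers had a higher mean and were higher in each of the 3 replicate pairs, with a median of 0.27. Their mean level was 8.58 to 8.95 in the Cugbp1 shRNA arrays and 8.39 to 8.63 in the control arrays. Without the block 0 of 9 were called (4 at an unadjusted p under 0.05 in limma). With it 7 of 9, or 77.8%, were called higher, beside 9.34% of all genes. The part of any of these cells in the values of the guidance genes was not tested.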

How the data were processed

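Total RNA of 6 samples, 3 per group, was measured on exon arrays. The authors deposited log2 values, 1 for each exon probe set and array. Per the labels these came from RMA in Expression Console, and the submitters' processing notes name the mm9 build; the version is not given in the sources used here. RMA brings arrays to a shared distribution, so differences in total signal are removed, and the number of arrays limits the precision.

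Of the 1195555 deposited probe sets, those with a mean of at least the median, 5.73, were kept (597778). A gene with 3 or more kept probe sets annotated to it alone was summarised by Tukey median polish, which gave 16532 genes. Symbols were updated through RefSeq (GRCm38.p6): 17991 of 22274 were current, 4220 were updated and 63 were kept. Groups were compared with limma 3.58.1 in R 4.3.3 (package data.table, version 1.17.8), two-sided, adjusted by Benjamini-Hochberg over all genes, as Cugbp1 shRNA minus control with no other term. Exon usage was tested with diffSplice, which takes 1 variance per gene. On simulated data with unequal variances within genes it called many unchanged probe sets, so its calls are given beside those of a splicing index.

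Arrays without a number were taken as replicate 1. Deviations from group means correlated, across genes, at 0.76, 0.50 and 0.71 between same-numbered arrays, so the replicate number pairs them, and the fit with it as a block stands beside results whose call it changes. Alternatives were the block, a block for the label form, other normalizations, filters, summaries and variance models, and left-out arrays. With arrays left out, the filter and the median polish were run again on those left. The guidance genes, the lists and the tests were chosen with earlier results of these data known. Guidance genes given with every array are those called in either fit and the smallest p in each family, with Dcc added. Celf1 and Pard3b are also given in this way. Further cues and effectors are those called in either fit, up to 6 each, and probe sets are the called ones, up to 8.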

Additional observations from a re-analysis of the deposited data

How the results depend on the processing

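Without control replicate 2 the median of the guidance genes turned from -0.037 to 0.0013. Guidance genes called numbered 3 as reported (2 higher, 1 lower). They numbered 14 (6 and 8) with the replicate block, 8 (5 and 3) with a block for the label form, 6 (3 and 3) with the filter at the 75th percentile, 6 (3 and 3) at an adjusted p under 0.10, 5 (3 and 2) with trended robust variances, and 1 (1 and 0) where 1 probe set per gene was enough; replicates 2 and 3 alone gave 3 (3 and 0). All genes called, 652 as reported, numbered 3834, 2539, 1058, 1351, 1091 and 261 in the first 6 of these. With the replicate block and without replicate 1, 2 or 3 of both groups, which was chosen after seeing the data, guidance calls numbered 8 (4 and 4), 0 (0 and 0) and 4 (1 and 3), calls over all genes 2255, 0 and 1382, other cues 7, 0 and 4 and effectors 7, 0 and 6. Celf1 was at -1.31 without replicate 2 in that fit (adjusted p = 0.0758). Leaving out 1 array gave 0 to 1 guidance calls (0 to 1 higher, 0 to 0 lower), 0 to 274 over all genes, 0 to 0 other cues, 0 to 0 effectors, 0 to 8 probe sets and a Celf1 difference of -1.43 to -1.29. Other cues called, 3 as reported, numbered 15 with the replicate block, 8 with the label block, 1 with replicates 2 and 3 alone and 1 where 1 probe set was enough. Effectors called, 5 as reported, numbered 13, 12, 3 and 1 in the same settings and 3 with the mean of probe sets. Changed probe sets, 2 as reported, numbered 40 with the replicate block and 0 with the splicing index, with or without that block. Quantile normalization, median centring and no filter on low probe sets each called the same 3 guidance genes. Genes given with every array other than Dcc and Pard3b, and the cues and effectors named, kept their sign in every setting run. Leaving out 1 array turned the sign of other genes named by their difference, among them Plxnb3 (-0.54 to 0.097), Plxna1 (-0.026 to 0.059), Epha5 (-0.047 to 0.064), Unc5b (-0.052 to 0.15), Unc5d (-0.041 to 0.17) and Robo4 (-0.12 to 0.22). The causes were not tested, and gene values were summarised anew in each fit with arrays left out. With 3 arrays per group, differences near the median standard error of 0.11 were not detectable.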

Other observations

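Nrp2, the co-receptor of Sema3f, could not be given a value of its own, but the 28 probe sets annotated to Nrp2 and Pard3b together all passed the filter. Summarised as a gene would be, they had values of 9.36, 9.72 and 9.67 in the Cugbp1 shRNA arrays and 10.28, 10.43 and 10.29 in the control arrays. All 28 had a lower mean, every Cugbp1 shRNA array lay below every control array, and the difference of the means was -0.75 on the log2 scale. Pard3b, a polarity protein, was also measured by probe sets of its own, at 7.23, 7.57 and 7.55 in the Cugbp1 shRNA arrays and 7.38, 7.74 and 7.65 in the control arrays, a log2 difference of -0.14 (limma, adjusted p = 0.705, and 0.129 with the replicate block). The shared probe sets were looked at after seeing the data and were not tested, and which of these genes they measure is not known here.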
